A study of Mus musculus with 12 samples.

Results

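In distal forelimb buds of mouse embryos without HOXA13 and HOXD13, 1726 H3K27ac peaks appeared inside chromatin that carried the Polycomb mark H3K27me3 in wild type. They are called domain-gained peaks here. They were chosen by the peak calls of 3 libraries: an autosomal H3K27ac peak of the Hoxa13-/-;Hoxd13-/- embryos (the double mutant), no overlapping wild-type H3K27ac peak, and at least 1 bp in common with a wild-type H3K27me3 peak. They are 1726 of 37433 autosomal and of 38115 H3K27ac peaks of the double mutant in all. Absence from wild-type H3K27ac was called at 30.4% of the autosomal peaks, and overlap with wild-type H3K27me3 at 15.7%. These calls define the set and are not a result about it.

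H3K27ac and H3K27me3 sit on the same lysine of histone H3, so a given tail carries one mark or the other. Polycomb repressive complex 2 writes H3K27me3 over silent developmental genes, often as wide domains. H3K27ac is found at active promoters and enhancers. HOXA13 and HOXD13 are homeodomain transcription factors that bind regulatory DNA in the distal limb bud, from which the digits form. In bulk tissue, overlapping peaks of both marks can come from the same cells, from different cells or from different alleles, which cannot be told apart.

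Both marks were profiled by chromatin immunoprecipitation and sequencing at E11.5 in the double mutant and in wild type, on a mixed C57BL/6 and CD1 background. HOXA13 and HOXD13 were mapped at E11.5 in wild type. A further H3K27me3 library came from CD1 forelimb buds at E10.5, made with a Cell Signaling antibody in place of the Millipore antibody used at E11.5; its label names no distal part. H3K27ac was precipitated with an Abcam antibody and the factors with antibodies made in-house, and HOXA13 chromatin was crosslinked with DSG as well. In the mutant alleles a neomycin cassette interrupts the Hoxa13 coding region, and lacZ was put into the opening exon of Hoxd13. Each profile is 1 library, and the labels do not say whether embryos were pooled. No comparison between genotypes has a replicate check, and no p-value is given. The authors' lists held 37433 and 31220 autosomal H3K27ac peaks in double mutant and wild type, 18973 and 19624 H3K27me3 peaks in double mutant and wild type, and 15077 at E10.5. For the factors there were 30657 HOXA13 and 22372 HOXD13 peaks. Peaks carry the peak caller's score, read as 10 times the negative log10 of its p-value, with a floor of 50. It grows with read depth, which is unknown here, so unequal sequencing or enrichment of the libraries cannot be told apart from a gain of the mark. Positions are on mm9, for which no gene models or sequence were used, so regions are given without gene names. Intervals are at 95% and reflect peak counting alone; neighbouring peaks share a domain and a library, which makes them too narrow.

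Most domain-gained peaks were short, low-scoring and covered in full by wild-type H3K27me3. Their median width was 1033 bp, with 50% of them between 880 and 1285 bp. The median score was 96.0, and 909 of the 1726 scored under 100. Gained peaks outside wild-type H3K27me3, 9667 in number and called outside-gained peaks here, were alike in width (median 1030 bp) and in score (median 85.7). H3K27ac peaks shared with wild type inside wild-type H3K27me3, 4161 in number and called domain-shared peaks, were wider (median 1829 bp) and scored higher (median 522). Wild-type H3K27me3 covered 1306 domain-gained peaks from end to end, which is 75.7% (73.6 to 77.6%), against 40.7% of domain-shared peaks (39.2 to 42.2%). A shorter peak is more easily covered in full, and the choice of the set used this H3K27me3 list. Wild-type H3K27me3 covered less than 50% of the peak at 152 domain-gained peaks (8.81%). The description as gained inside Polycomb domains thus holds in full for the 1306 peaks (75.7%), and the others were covered only in part. Among the 1306 fully covered peaks, the nearer end of the domain lay a median of 1717 bp away.

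The overlap rule has members that barely meet it. The 3 smallest overlaps were 4 bp at chr15:83566396-83567216, 4 bp at chr19:10321736-10322476 and 7 bp at chr16:29797236-29798008. Just outside the rule, the gained peak at chr12:58081972-58083383 abutted a wild-type H3K27me3 peak with 0 bp between them. Those at chr17:28649124-28650349 and chr9:44949106-44950777 lay 4 bp from one. On the acetylation side, 157 domain-gained peaks (9.10%, 7.83 to 10.55%) lay within 1000 bp of a wild-type H3K27ac peak, against 14.1% of outside-gained peaks (13.4 to 14.8%). The median distance to wild-type H3K27ac was 13346 bp for domain-gained and 6685 bp for outside-gained peaks. The rule left out every peak that overlaps wild-type H3K27ac, so these distances describe the set and are not a result about it.

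H3K27me3 of the double mutant was not used to choose the set, and it was still called at 1434 of the 1726 domain-gained peaks. That is 83.1% (81.2 to 84.8%), while 13.2% of all autosomal double-mutant H3K27ac peaks overlapped this list. Domain-shared peaks gave 80.4% (79.2 to 81.6%), a difference of 2.69 percentage points (0.507 to 4.79). Within bands of the H3K27ac score the shares were close: 83.8% of domain-gained and 78.4% of domain-shared peaks at scores from 50 to 100, 81.6% and 84.1% from 100 to 200, 84.6% and 84.9% from 200 to 500, and 77.3% and 77.2% at 500 or more. The bands were chosen after the values were seen. Double-mutant H3K27me3 covered 1079 domain-gained peaks from end to end (62.5%, 60.2 to 64.8%), and 1065 were fully covered in both genotypes. Over the summed length of the set, 72.7% lay in double-mutant and 89.1% in wild-type H3K27me3. New acetylation inside these domains was thus mostly called on top of H3K27me3 that was still called.

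**Figure D1:**
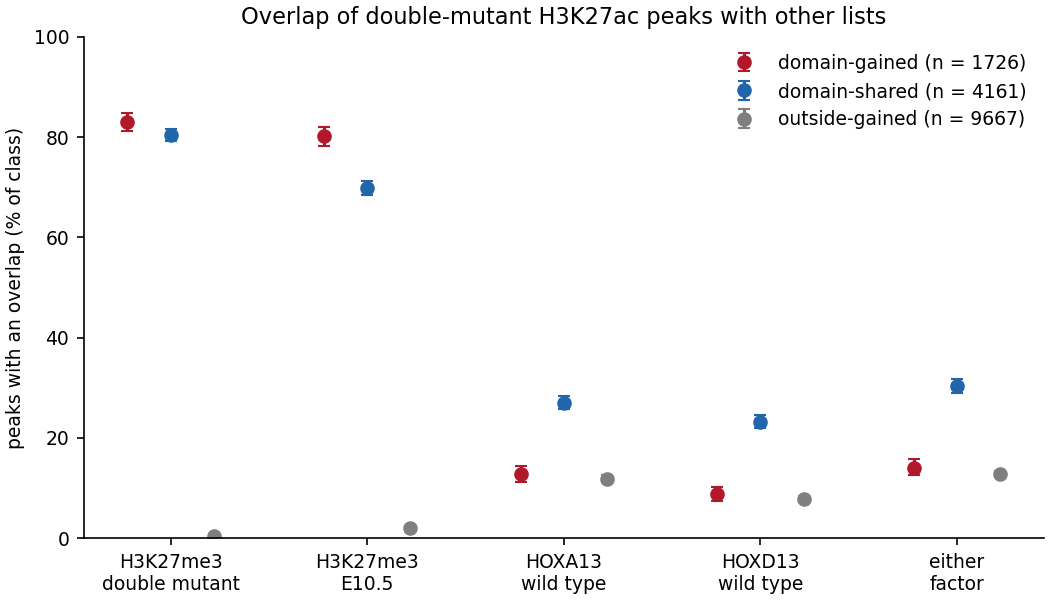
Percentage of double-mutant H3K27ac peaks that overlap double-mutant H3K27me3, E10.5 H3K27me3, HOXA13, HOXD13 or either factor, for domain-gained, domain-shared and outside-gained peaks; points are shares and bars Wilson 95% intervals. Domain-gained peaks match domain-shared peaks closely in double-mutant H3K27me3 (83.1% and 80.4%) and lie near outside-gained peaks in factor overlap (14.1% and 12.8% for either factor).

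E10.5 H3K27me3, also not used in the choice, was called at 1385 domain-gained peaks, or 80.2% (78.3 to 82.1%), against 13.1% of all autosomal double-mutant H3K27ac peaks. Domain-shared peaks gave 69.9% (68.5 to 71.3%), which is 10.3 points lower (difference 7.95 to 12.6). The direction was the same in each band of H3K27ac score, with 78.1% of domain-gained against 60.3% of domain-shared peaks at scores from 50 to 100, and 77.3% against 65.8% at 500 or more. The gap was smallest from 200 to 500, at 81.6% (75.7 to 86.3%) against 77.6% (75.1 to 79.9%), where the intervals overlapped. H3K27me3 was called at E10.5 and in both E11.5 genotypes at 1272 domain-gained peaks, 73.7% of the set (71.6 to 75.7%). Another 179 (10.4%) had it in E11.5 wild type alone, 162 (9.39%) in both E11.5 genotypes but not at E10.5, and 113 (6.55%) at E10.5 and in E11.5 wild type but not in the double mutant.

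The 292 domain-gained peaks without double-mutant H3K27me3 sat in smaller and weaker domains than the 1434 that kept it. The wild-type H3K27me3 peak around them had a median width of 1888 bp and a median score of 251, against 5912 bp and 3100 for the others. A score of 3100 is a near-ceiling, held by 4432 of the 19624 autosomal wild-type H3K27me3 peaks, so the size of the score gap cannot be read from the medians. A score of 3100 or more was found at 15.8% of the peaks without double-mutant H3K27me3 (12.0 to 20.4%) and at 70.4% of those with it (68.0 to 72.7%). Wild-type H3K27me3 covered a median of 76.7% of the H3K27ac peak, against 100%. It covered less than 50% at 90 of the 292 (30.8%, 25.8 to 36.3%) and at 62 of the 1434 (4.32%, 3.39 to 5.50%). Peaks on domain edges were thus more frequent among the 292. Acetylation itself scored alike in both classes, with medians of 99.3 and 94.9. For 214 of the 292 (73.3%, 67.9 to 78.0%), double-mutant H3K27me3 was missing from the whole wild-type domain and not only from the acetylated piece. The 292 peaks had a median width of 1107 bp and their domains 1888 bp, so piece and domain are hard to tell apart. Of wild-type H3K27me3 peaks under 2 kb without a domain-gained peak, 56.2% lacked it too. Domain width and the loss of the H3K27me3 call moved together: no double-mutant H3K27me3 was called at 64.9% of domain-gained peaks in domains under 2 kb, at 13.6% in domains of 2 to 5 kb and at 6.51% in domains of 5 kb and over. What part low scores have in the missing calls was not tested.

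The domains were then counted themselves. Domain-gained peaks lay in 1594 of the 19624 autosomal wild-type H3K27me3 peaks (8.12%), called hosts here, with a combined length of 11.1 Mb of 74.3 Mb. A single domain-gained peak was found in 1464 hosts, 2 in 107 hosts, 3 in 16, 4 in 5, 6 in 1 and 7 in 1. The share of domains that were hosts went up with width, from 2.75% (2.43 to 3.12%) of those under 2 kb to 23.6% (19.3 to 28.5%) of those of 20 kb and over, but a longer domain has more room to overlap a peak. Per Mb of wild-type H3K27me3 the values rose and then fell. Domains under 2 kb held 21.1 domain-gained peaks per Mb, those of 2 to 5 kb 27.2 and those of 5 to 10 kb 28.5. At 10 to 20 kb there were 20.04, and at 20 kb and over 10.7. Peaks that only touch an edge count too, which adds most per Mb in narrow domains. The values per Mb are thus not fully corrected for length. Hosts had a median of 85.3% of their length in double-mutant H3K27me3, and all other wild-type H3K27me3 peaks 66.9%. Compared at like width, this gap was small: 81.1% for hosts against 74.8% for others at 2 to 5 kb, 89.0% against 88.5% at 5 to 10 kb and 92.8% against 93.2% at 10 to 20 kb. Complete absence of the mark from the double mutant was called at 30.4% of all autosomal wild-type H3K27me3 peaks. It was called at 62.4% of hosts under 2 kb (56.2 to 68.3%) against 56.2% of others (55.1 to 57.2%), and at 7.495% of hosts of 2 to 5 kb (5.57 to 10.0%) against 13.4% of others (12.6 to 14.3%). The intervals overlapped under 2 kb and above 5 kb, and at 2 to 5 kb the share of hosts lay below that of other domains with no overlap of the intervals.

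**Figure D2:**
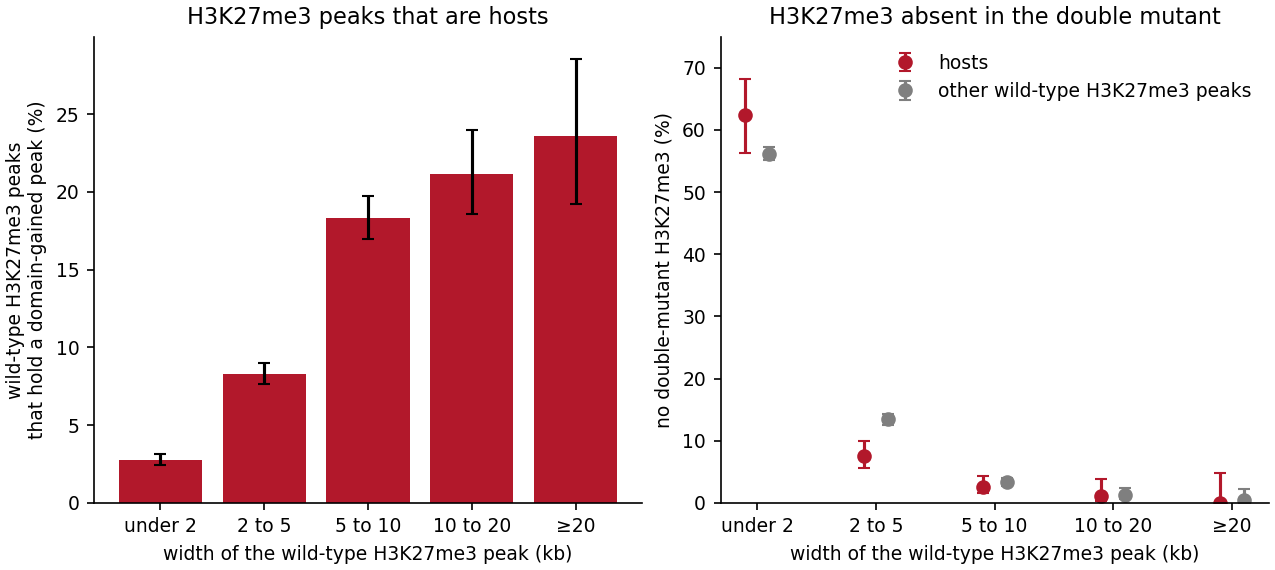
Left, percentage of autosomal wild-type H3K27me3 peaks that hold a domain-gained H3K27ac peak, by width of the H3K27me3 peak in kb. Right, percentage with no double-mutant H3K27me3, for hosts and for all other wild-type H3K27me3 peaks of that width; bars and points are shares and lines Wilson 95% intervals. The left share, which is not corrected for length, goes from 2.75% to 23.6% with width, and the right share falls from over 50% under 2 kb to a few percent above 5 kb in both groups.

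Of 130 hosts of more than 1 domain-gained peak, 96 had double-mutant H3K27me3 at every domain-gained peak, 14 at none, and 20 at some. It was called at 83.1% of all domain-gained peaks, a share that by itself makes hosts with it at every peak common. Agreement of the peaks within a host was not tested. Wild-type H3K27ac was called elsewhere in 271 hosts (17.0%, 15.2 to 18.9%). At 2 to 5 kb it was found in 11.3% of hosts (8.94 to 14.3%) against 29.9% of other domains (28.7 to 31.0%), and at 20 kb and over in 46.7% (35.8 to 57.8%) against 28.8% (23.5 to 34.8%). In narrow domains this is partly fixed by the rule, since a wild-type H3K27ac peak leaves little room for a gained one.

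Of the hosts with most domain-gained peaks, those with 7 and 6 and the widest of the 5 tied at 4 kept H3K27me3 in the double mutant over nearly their whole length. So did wide domains in general: at 20 kb and over the median coverage was 97.2% for hosts and 97.2% for other domains. The host at chr15:102725117-102906289 is 181173 bp wide and was covered to 97.9% by double-mutant and to 86.1% by E10.5 H3K27me3. It held 11 double-mutant H3K27ac peaks covering 16.5% of it, 7 of them domain-gained, against 5 wild-type peaks covering 4.03%. The scores of its domain-gained peaks ran from 71.2 to 655, and 3 of the 7 overlapped HOX13 peaks. In the host at chr1:74824643-74859006 all 6 double-mutant H3K27ac peaks were domain-gained, with scores of 50.4, 108, 50.9, 87.7, 185 and 53.8. No wild-type H3K27ac was called there, while H3K27me3 covered 98.5% in the double mutant and 99.8% at E10.5. Of those 6 peaks, the last overlapped HOXA13 (score 185) and HOXD13 (score 110) and the others neither. The host at chr13:31883346-31917716 held 4 domain-gained peaks, scored 147, 59.0, 481 and 153, beside 2 wild-type H3K27ac peaks; double-mutant H3K27me3 covered 99.8% of it.

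**Figure D3:**
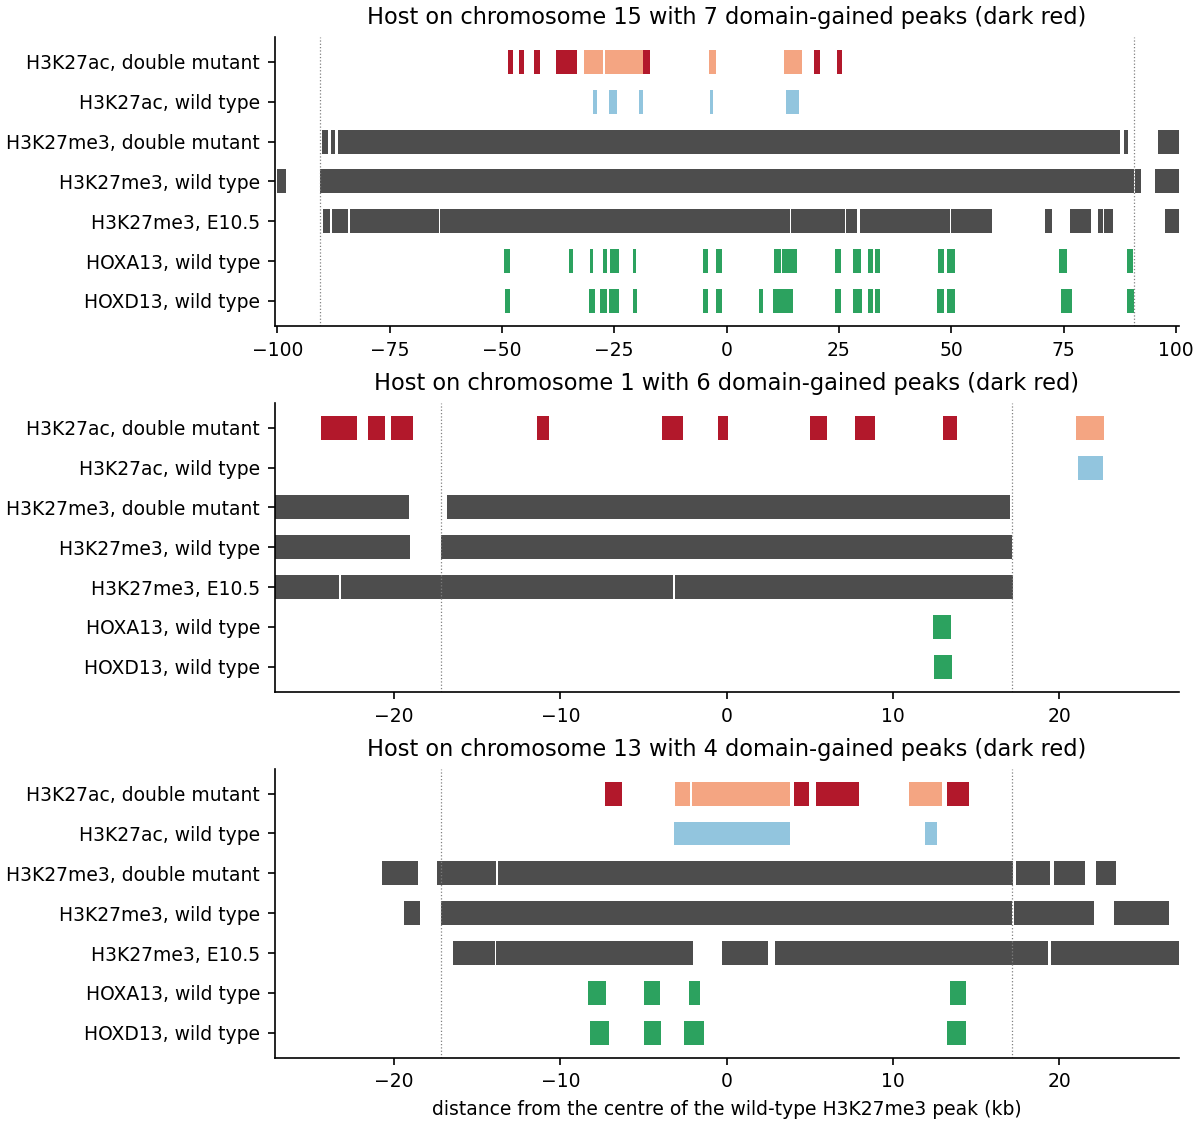
Peaks of the 7 lists around the hosts with 7 and 6 domain-gained peaks and the widest of the 5 hosts tied at 4, by distance in kb from the centre of the wild-type H3K27me3 peak, whose ends are dotted. Domain-gained H3K27ac peaks are dark red and other double-mutant H3K27ac peaks light red, wild-type H3K27ac is light blue; H3K27me3 is dark grey and the factors are green. In all 3 hosts H3K27me3 of both genotypes runs under the domain-gained peaks. On chromosome 1, 3 more lie in the neighbouring H3K27me3 peak.

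Domain-gained peaks were spread over every autosome, from 39 on chromosome 16 to 153 on chromosome 11. As a share of all gained H3K27ac peaks of the chromosome they made up between 10.2% (chromosome 18, 7.61 to 13.5%) and 22.5% (chromosome 19, 18.0 to 27.8%), against 15.1% over all autosomes (14.5 to 15.8%). Most stood alone: 1106 of the 1726 (64.1%) had no other within 50 kb. The largest runs joined at that distance held 11 each, at chr8:87225562-87339274 and chr19:7130650-7260563. They were picked after the values were seen and differ in H3K27me3. Double-mutant H3K27me3 covered 84.4% and wild-type H3K27me3 92.3% of the run on chromosome 8. On chromosome 19 the values were 43.4% in double mutant and 68.9% in wild type.

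HOX13 binding was then set against the gained acetylation. A HOXA13 or HOXD13 peak overlapped 243 domain-gained peaks, or 14.1% (12.5 to 15.8%), while 29.3% of all autosomal double-mutant H3K27ac peaks were bound. With all lists limited to scores of at least 100 the share was 8.53% (7.09 to 10.2%). That floor also drops weak wild-type H3K27ac peaks, so its 1207 peaks include some that are not among the 1726. The share of the other classes at that floor was not computed. Without the floor, domain-shared peaks were bound at 30.4%, a difference of -16.3 points (-18.4 to -14.1). Wider peaks have more room to overlap a factor peak. Median widths were 1829 bp for domain-shared, 1593 bp for all autosomal and 1033 bp for domain-gained peaks. What part width has in these differences was not tested. The domain-gained share differed from the 12.8% of outside-gained peaks, with a median width of 1030 bp, by 1.32 points. Its interval from -0.379 to 3.16 includes 0. HOXA13 overlapped 220 domain-gained peaks, HOXD13 151 and both 128. These were 225 HOXA13 and 155 HOXD13 peaks, whose median scores were 118 for HOXA13 and 110 for HOXD13, against 126 and 134 over the autosomal lists. The factor libraries are from wild type, where gained peaks by definition had no H3K27ac; what part that rule has in the lower share was not tested.

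Binding was more frequent at the few domain-gained peaks with high acetylation scores. Of the 22 with a score of 500 or more, 14 were bound (63.6%, 43.0 to 80.3%), against 787 of 2147 domain-shared peaks (36.7%, 34.6 to 38.7%) and 12 of 46 outside-gained peaks (26.1%). The differences were 26.98 points (6.19 to 43.7) and 37.5 points (12.5 to 57.2). Peaks of this band named by position in this report were 1864 to 5071 bp wide, against a set median of 1033 bp. Widths were not compared within bands, so what part width has here was not tested. The bands were chosen after the values were seen. Below 500 the order against domain-shared peaks was the opposite, with 12.9% bound against 30.5% at scores from 50 to 100, 12.96% against 23.0% from 100 to 200 and 17.4% (12.8 to 23.3%) against 22.5% (20.1 to 24.96%) from 200 to 500, where the intervals overlapped. The 22 also made up 32.4% (22.4 to 44.2%) of the 68 gained peaks at 500 or more, whereas 13.3% of gained peaks from 50 to 100 were domain-gained.

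**Figure D4:**
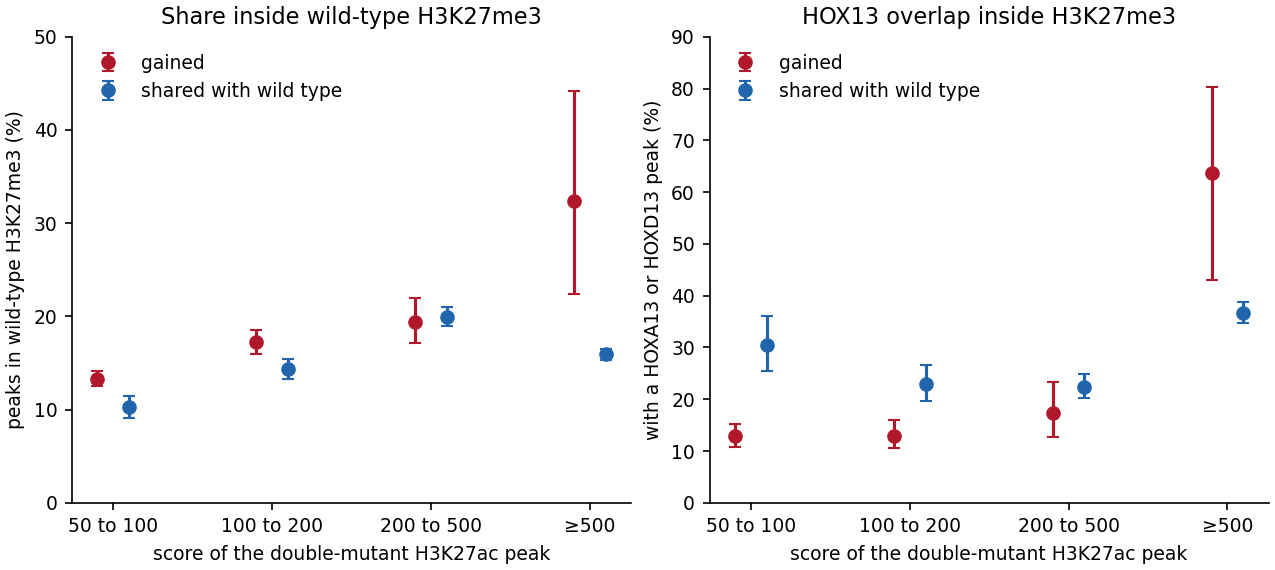
Left, percentage of gained and of shared double-mutant H3K27ac peaks that lie in wild-type H3K27me3, by band of H3K27ac score. Right, percentage of domain-gained and of domain-shared peaks with a HOXA13 or HOXD13 peak, by the same bands; points are shares and lines Wilson 95% intervals. At 500 or more, 22 of 68 gained peaks were domain-gained and 14 of these 22 were bound.

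HOX13 overlap differed with the H3K27me3 state of the domain-gained peak. It was 24.3% (19.7 to 29.5%) for the 292 without double-mutant H3K27me3 and 12.0% (10.4 to 13.8%) for the 1434 with it, a difference of 12.3 points (7.42 to 17.8) that came to 6.73 points (2.60 to 11.7) when 50% overlap was asked for. By E10.5 state the difference was 17.2 points (12.4 to 22.4), with 27.9% bound among the 341 without E10.5 H3K27me3 and 10.7% among the 1385 with it. The E10.5 difference was found within both double-mutant states. It was 16.6 points (6.69 to 25.4) where double-mutant H3K27me3 was absent and 14.3 points (8.05 to 21.7) where it was present. Peaks without E10.5 H3K27me3 also had lower median wild-type H3K27me3 scores than peaks with it. These were 221 against 386 where double-mutant H3K27me3 was absent, and 857 against 3100 where it was present. What part domain score or width has in the E10.5 difference was not tested. Within the E10.5 states the double-mutant difference was smaller: 6.03 points (-3.51 to 15.3) without E10.5 H3K27me3 and 3.78 points (-1.77 to 11.55) with it, both intervals including 0. By domain width it was 3.13 points (-7.28 to 12.1) under 2 kb, 20.2 points (10.2 to 31.6) at 2 to 5 kb and 20.1 points (9.45 to 32.8) at 5 kb and over. The E10.5 library also differs in antibody, strain and dissected part, and these cannot be told apart from stage.

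**Figure D5:**
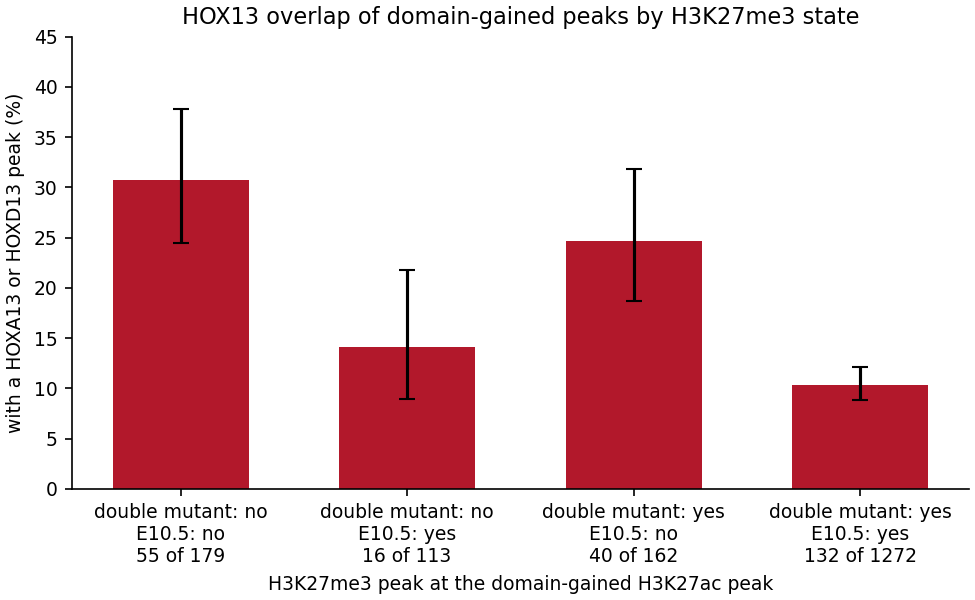
Percentage of domain-gained peaks with a HOXA13 or HOXD13 peak, by whether H3K27me3 was called there in the double mutant and at E10.5; bars are shares and lines Wilson 95% intervals, with the numbers bound below. Bars without E10.5 H3K27me3 (30.7% and 24.7%) stand above those with it (14.2% and 10.4%).

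The 179 domain-gained peaks with H3K27me3 in E11.5 wild type alone had the highest HOX13 share, 55 of 179 or 30.7% (24.4 to 37.8%), and 33 of the 55 carried both factors. This is close to the 29.3% over all autosomal double-mutant H3K27ac peaks. Their median H3K27ac score was 97.1, and the wild-type H3K27me3 peaks under them had a median score of 221 against the near-ceiling of 3100 for the 1272 with H3K27me3 in all 3 libraries. The 4 of the 55 with the highest H3K27ac scores were looked at singly, a choice made after the values were seen. At chr12:57924176-57926379 acetylation scored 716 in the double mutant, wild-type H3K27me3 679, HOXA13 1031 and HOXD13 820. The peak at chr16:72923117-72925510 scored 484 for acetylation and overlapped H3K27me3 peaks scoring up to 2398 in wild type. HOXA13 there scored 1538 and HOXD13 1397. The third, chr6:100860187-100861423, had an acetylation score of 339, a wild-type H3K27me3 score of 755 and HOXA13 alone (91.7). At chr3:66542134-66544641 acetylation scored 335, wild-type H3K27me3 3100, HOXA13 1964 and HOXD13 1465. None of the 4 had H3K27me3 at E10.5 or in the double mutant, and wild-type H3K27me3 covered between 69.9% and 76.7% of each.

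Among the other peaks without double-mutant H3K27me3, a HOXD13 peak (score 231) overlapped chr8:92092985-92095757, where acetylation scored 745, wild-type H3K27me3 654 and E10.5 H3K27me3 154. It lay 123 bp from wild-type H3K27ac, and H3K27me3 covered 40.4% of it. The highest-scoring peaks of this class without HOX13 were a pair of neighbours on chromosome 9 and 1 on chromosome 11. At chr9:65022417-65024815 acetylation scored 761 over a wild-type H3K27me3 score of 3129, and at chr9:65025500-65027794 the scores were 565 and 1421. Both hosts lacked H3K27me3 in the double mutant over their whole length (5703 and 5070 bp), and neither peak had it at E10.5. The peak at chr11:102631154-102634118 scored 591 for acetylation and 138 for wild-type H3K27me3, and lay 790 bp from wild-type H3K27ac.

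Where double-mutant H3K27me3 was kept, the bound peak with the highest score was also the widest of the set. At chr2:74984036-74989106 (5071 bp) acetylation scored 1838. H3K27me3 scored 239 in the double mutant and 3100 in wild type, and none was called at E10.5. Double-mutant H3K27me3 covered 40.1% of the peak and wild-type H3K27me3 all of it, HOXA13 scored 203 and HOXD13 82.6. At chr2:154843981-154846808 acetylation scored 1443, H3K27me3 1866 in double mutant and 3223 in wild type, and HOXA13 94.7. The peak at chr2:165006882-165010413 scored 948 for acetylation, with weak peaks of both factors (89.8 and 80.2). Without HOX13, the highest were chr10:21867730-21869593 (acetylation score 1001), chr18:36227513-36230144 (603) and chr5:23978930-23981549 (588). The first of these lay 152356 bp from the nearest wild-type H3K27ac. The remaining wide peaks were chr14:68230503-68235109 (4607 bp) and chr15:102777783-102782366 (4584 bp), both with a HOXA13 peak.

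The opposite case was rarer. Of 4712 autosomal wild-type H3K27ac peaks without a double-mutant peak, 287 lay in double-mutant H3K27me3, or 6.09% (5.44 to 6.81%). Domain-gained peaks made up 15.1% of gained peaks, near the 15.7% of all autosomal double-mutant H3K27ac peaks that overlapped wild-type H3K27me3. The share of all wild-type H3K27ac peaks in double-mutant H3K27me3 was not computed, so the 6.09% has no such base beside it. H3K27me3 of the other genotype was called at like shares: 83.1% of domain-gained peaks had it in the double mutant, and 83.3% of these 287 (78.5 to 87.1%) had it in wild type. HOX13 bound 14.1% of domain-gained peaks and 52.6% of the 287 (46.8 to 58.3%). The gap was of like size outside H3K27me3: outside-gained peaks were bound at 12.8%, lost peaks outside double-mutant H3K27me3 at 54.03% (52.6 to 55.5%), and all autosomal wild-type H3K27ac peaks at 38.2%. The factor libraries are from wild type, where lost peaks by definition had H3K27ac and gained peaks had none. What part that rule or peak width has in the gap was not tested. The lists behind the 2 cases differ in size. H3K27ac covered 73.2 Mb of autosomes in the double mutant and 58.5 Mb in wild type, and H3K27me3 59.96 Mb in the double mutant and 74.3 Mb in wild type. Set against the wild-type H3K27me3 list, 304 of the 4712 lost peaks lay inside it (6.45%, 5.8 to 7.2%), beside the 15.1% of gained peaks. What part the list sizes have in the difference was not tested.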

How the data were processed

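The series holds 12 mouse samples, 7 immunoprecipitated libraries and 5 inputs, grouped by sample title with 1 library per group. The submitters' processing notes name Bowtie 0.12.7, MACS 1.4 and the build mm9; their settings are not given in the sources used here. The authors' deposited lists give each peak's position and a score, which was used within a list to rank, band or describe peaks. Lists hold no read counts, so depth is unknown. The reference at hand is GRCm38, and each list has peaks past the end of its chromosome 1, so no gene or sequence was assigned. Input signal was not analysed here, and the labels do not say which input served the E11.5 H3K27me3 lists, on which the set rests.

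Overlap meant 1 bp in common. Shares have Wilson and differences Newcombe 95% intervals (Python 3.11.15, numpy 2.4.6, pandas 2.3.3). The interval code was tested on simulated data. Named regions are the 3 highest-scoring peaks of each of 4 classes (double-mutant H3K27me3 by HOX13), the 3 widest, the 3 nearest the overlap limit on either side and the 3 hosts with most peaks (ties by width); others are marked. The set and lists were chosen with earlier results of these data known; score bands and width classes were chosen after values were seen. Alternatives were a score of 100 or more, 50% overlap, joining within 1000 bp, a distance of 1000 bp as overlap, equal list lengths, all chromosomes and both factors.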

Additional observations from a re-analysis of the deposited data

How the results depend on the processing

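Of 61 recomputed values, 43 stayed within the interval of the reported value or, for counts, within 1.5 times of it, 18 moved and 0 changed sign. With equal list lengths there were 1131 domain-gained peaks, against 1726; the other counts of peaks ran from 1207 to 1775 and those of hosts from 1082 to 1704, against 1594. Their share of gained peaks was 17.7% when all lists were limited to scores of at least 100, 13.7% with 50% overlap, 16.6% with joining, 17.9% with a distance of 1000 bp and 16.8% with equal lengths. Double-mutant H3K27me3 was kept at 85.7% with joining. E10.5 overlap was 76.4% at a score of 100 or more and 62.9% with 50% overlap. The bound share was 8.53% at a score of 100 or more, 9.64% with 50% overlap, 19.0% with a distance of 1000 bp and 7.42% for both factors. The bound difference between peaks without and with double-mutant H3K27me3 was 6.73 points with 50% overlap. The share with E10.5 H3K27me3 was 38.7% in peaks without and 88.7% in peaks with double-mutant H3K27me3, a difference of -50.0 points, which became -57.7 points at a score of 100 or more, -33.2 with 50% overlap and -59.5 with a distance of 1000 bp. Median host coverage was 83.9% with a distance of 1000 bp. The cause of these moves was not tested. No paired analysis was possible because each group is 1 library. Unknown read depth limits every statement that a peak was absent.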
